A study of Mus musculus with 464 samples.

Results

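The hypoxia response and glycolysis genes are a module of 37 genes, taken by name from a list of glucose and lactate transporters, glycolytic enzymes, mitochondrial proteins, oxygen sensors and secreted or stress proteins that low oxygen is known to induce. All 37 were among the 21973 genes of the expression table. They were described over every cell in which 2000 or more genes had a value above 0 and mitochondrially encoded genes took no more than 20% of expression.

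The cells came from R1, a mouse embryonic stem cell line that was kept with 15% Knockout Serum Replacement and LIF at 1000 U/ml, a cytokine that holds such cells undifferentiated. Embryoid bodies, which are floating balls of differentiating cells, were made in hanging drops over 48 h and then treated for 4 days with retinoic acid, the active form of vitamin A and an inducer of neural fates, given in the labels at 0.5 mM. A Fluidigm C1 instrument captured the cells 1 by 1, their RNA was copied with SMART-Seq V4 chemistry and made into Nextera XT libraries, and all samples carry the same label. No untreated cells, no genotypes and no separate cultures are named and no oxygen level is given, so the cells form 1 sample and every comparison below is between cells of that sample, without a p-value.

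Of the columns, each 1 cell, 6 were removed and the rest kept, with a median of 6742.5 genes above 0 (range 2059 to 10256). Sequencing depth is unknown, because the values are TPM, which give each gene's share of transcripts corrected for its length. Column names fall into 2 sets of nearly equal size. In 55 cases a column of set 1 had a near copy in set 2, with a correlation of 0.946 to 0.99 over the genes outside the module, and these 110 columns, 24.02% of those kept, were taken to be the same cells measured again. Distinct cells are the kept columns with 1 of each pair. Intervals are exact Clopper-Pearson 95% intervals for counting error alone, and repeated cells make them too narrow.

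Cells were sorted into states by how many of 10 markers of each lineage they held at 1 TPM or more. Progenitor-marked cells (at least 5 neural progenitor markers such as Pax6 and Sox2, with fewer than 8 neuron markers) made up 43.2% of the cells. Neuron-marked cells (at least 8 neuron markers such as Tubb3 and Dcx) numbered 120, or 26.2%, and endoderm-marked cells (at least 5 endoderm markers such as Gata6 and Sox17) 64, or 13.97%. Neuron markers took precedence over progenitor markers, so neuron-marked cells carry many of the latter. Of the 120 neuron-marked cells, 80 held at least 5 progenitor markers, and Pax6 was detected in 85.8% and Sox2 in 65% of the 120. Progenitor-marked cells in turn held a median of 4 neuron markers, with Tubb3 detected in 73.2% and Stmn3 in 88.4% of them, but Dcx in 29.3%. A further 53 mixed cells held endoderm markers with neural ones, and 23 were unmarked. A state is a range of a marker count, not a cell type. Exactly 5 progenitor markers were held by 32 cells, 8 neuron markers by 32 and 5 endoderm markers by 11. Of the 55 pairs of near-copy columns, 50 had both columns in the same state. The 10 endoderm markers together had a median of 834 TPM in endoderm-marked cells (193.5 to 2050) and 2.55 TPM in progenitor-marked cells (0 to 87.99). The source is labelled as embryonic stem cells, but the 6 pluripotency markers summed to a median of 0 TPM in progenitor-marked and neuron-marked cells. In endoderm-marked cells they summed to a median of 37.6 TPM. There Zfp42 was detected in 71.9% of cells, Dppa4 in 32.8% and Pou5f1 in 1.56%, and Nanog, Esrrb and Tdgf1 were listed at 0. The mesenchyme, endothelium and blood, trophoblast and neural crest lists each had a median sum of 0 TPM in all 5 states. Ptprc, Hbb-y and Tpbpa were listed at 0 throughout, but other markers of these lists were detected in a minority of cells. Foxd3 was detected in 25.8%, Tfap2a in 14.2% and Tal1 in 11.7% of neuron-marked cells. Ets1 was detected in 18.75%, Twist1 in 15.6% and Cdh5 in 12.5% of endoderm-marked cells, and Prrx2 in 18.2% of progenitor-marked cells.

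In animal cells, low oxygen stops the prolyl hydroxylases (Egln genes) from marking the alpha subunit of hypoxia-inducible factor (Hif1a) for destruction. The stabilised factor pairs with Arnt and binds short hypoxia response elements near genes for glucose uptake, glycolysis, lactate export, mitophagy and blood vessel growth. This control acts mainly on the amount of Hif1a protein, which RNA sequencing does not measure, and embryonic and neural progenitor cells are known to use glycolysis heavily.

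The core of such an element is ACGTG, so the RefSeq promoter windows of the members (assembly GRCm38.p6, the 250 bases before each start) were searched for ACGTG and its reverse complement CACGT, with overlapping matches on both strands counted as 1 site. Of the 33 members with a window, 20 (60.6%) held it in at least 1 window, beside 18.5% of 27025 genes. By window, it stood in 23 of 48 (47.9%), beside 16.6% of 32851. The related core GCGTG, or CACGC on the other strand, was searched as a later addition and stood in 24 of the 48 windows (50%), beside 28.2% of all windows. Slc2a3, Bnip3l, Stc1 and Ndrg1 had no window. A match is a string of letters, not a measured binding site. The windows of 4 of the 6 members with the highest median rho to the other members are printed, chosen after their values were seen, to set the letters beside the correlations that follow: Ldha with 3 matches (chr7:46845554-46845803, plus strand, 1 of 2 windows of the gene), Pgk1 with 2 (chrX:106186850-106187099, plus strand), Bnip3 with 1 (chr7:138909507-138909756, minus strand) and Tpi1 with 0 (chr6:124814159-124814408, minus strand). Each is written 5′ to 3′ along its gene, and capitals mark ACGTG or CACGT, merged to CACGTG where they overlap.
Ldha: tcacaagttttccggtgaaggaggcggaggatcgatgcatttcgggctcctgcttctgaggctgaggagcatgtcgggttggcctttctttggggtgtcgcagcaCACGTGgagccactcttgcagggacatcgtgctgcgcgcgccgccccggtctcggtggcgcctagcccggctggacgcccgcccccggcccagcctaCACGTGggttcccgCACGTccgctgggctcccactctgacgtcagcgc
Pgk1: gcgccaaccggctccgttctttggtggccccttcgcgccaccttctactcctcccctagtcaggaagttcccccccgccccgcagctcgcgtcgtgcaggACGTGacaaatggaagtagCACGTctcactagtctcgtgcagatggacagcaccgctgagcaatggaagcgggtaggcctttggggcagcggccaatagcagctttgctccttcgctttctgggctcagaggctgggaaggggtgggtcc
Bnip3: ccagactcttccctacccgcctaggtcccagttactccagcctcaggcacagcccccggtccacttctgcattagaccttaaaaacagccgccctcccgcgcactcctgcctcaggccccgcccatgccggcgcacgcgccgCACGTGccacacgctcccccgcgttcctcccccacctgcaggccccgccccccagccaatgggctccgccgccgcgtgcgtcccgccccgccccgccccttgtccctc
Tpi1: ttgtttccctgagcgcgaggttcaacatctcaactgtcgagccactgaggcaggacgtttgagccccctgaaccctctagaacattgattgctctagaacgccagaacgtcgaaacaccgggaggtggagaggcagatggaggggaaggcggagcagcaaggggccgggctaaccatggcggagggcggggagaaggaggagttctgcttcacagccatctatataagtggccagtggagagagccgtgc
Ldha and Tpi1, with 3 matches and 0, had a rho of 0.878 over all cells. Aldoa and Pgam1, the members of the 6 that are not printed, also held matches, so Tpi1 alone of the 6 had none. Whether the letters bear on the correlations was not tested.

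Together the 37 members took a median of 1.77% of a cell's TPM total, from 0.41% in the lowest cell to 7.69% in the highest. The median share was 2.19% in progenitor-marked, 1.73% in neuron-marked and 1.26% in endoderm-marked cells. Detection was set at 1 TPM. By that rule 14 members appeared in 95% of cells or more, 13 in under 50%, and 10 had a median of 0 TPM. Levels below are TPM, which can be set side by side between genes because they are corrected for length.

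Among the glucose and lactate transporters, Slc2a1, which encodes the glucose carrier GLUT1, led with a median of 96.5 TPM (0 to 1055). It was detected in 90.4% of cells (87.3 to 92.9). Slc2a3, which encodes the neuronal glucose carrier GLUT3, was detected in 47.2% (42.5 to 51.8). Slc16a3, which encodes the lactate exporter MCT4, was detected in 45.4% (40.8 to 50.1). Slc2a1 was thus the more abundant of the 2 glucose carrier genes.

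The 15 glycolytic enzymes had medians from 0 to 4702 TPM. Gapdh, which oxidises glyceraldehyde phosphate, stood highest (485 to 17317 TPM) and was detected in every kept cell. Ldha, which reduces pyruvate to lactate, followed at 1349 TPM (0 to 10046). The steps from aldolase to pyruvate kinase were next: Tpi1 at a median of 822 TPM, Eno1 at 764, Pgam1 at 667, Pkm at 577, Aldoa at 493 and Pgk1 at 475. Gpi1, the isomerase after hexokinase, had a median of 250 TPM. Genes of the regulated hexokinase and phosphofructokinase steps had fewer transcripts, with a median of 37.6 TPM for Pfkl, a phosphofructokinase subunit. Hk2, the inducible hexokinase, had a median of 2.62 TPM, Pfkfb3, which makes the activator of phosphofructokinase, 0.745 TPM, and the hexokinase gene Hk1 and the phosphofructokinase gene Pfkp each 0 TPM. Aldoc, a further aldolase gene, also had a median of 0 TPM. Eno1 is uncertain, because its near copy Eno1b is listed as a gene of its own with a median of 511 TPM and a rho of 0.99 with Eno1 over cells, so reads may have been split between them.

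Of the mitochondrial proteins, Higd1a, a respiratory chain factor, had a median of 682 TPM and the mitophagy receptor Bnip3l one of 558. Fam162a, a hypoxia-induced mitochondrial protein, had a median of 397.9 TPM. Bnip3, the other mitophagy receptor, had 281.2 TPM (0 to 3664). Pdk1, a kinase that inhibits pyruvate dehydrogenase, had 0.85 TPM and was detected in 49.3% of cells (44.7 to 54.02). The oxygen sensing genes were present at moderate levels: Hif1a had a median of 31.005 TPM (0 to 287.4) and was detected in 93.01% of cells (90.3 to 95.2). Egln1, the main oxygen-sensing hydroxylase, had 17.1 TPM, and its inducible relative Egln3 was detected in 26.9% (22.8 to 31.2).

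Mif, a secreted cytokine, was the most abundant member at a median of 5607 TPM (415.4 to 16638). The other secreted and stress genes were much lower. P4ha1, a collagen prolyl hydroxylase subunit, had a median of 29.3 TPM, the growth factor gene Vegfa 12.6, the histone demethylase gene Kdm3a 11.2, Mxi1, an antagonist of Myc, 4.78, and Ankrd37 3.10. Adm, which encodes the vasodilator adrenomedullin, Ndrg1, Stc1 and Ddit4, an inhibitor of mTORC1, all had a median of 0 TPM. They were detected in 21.4%, 21.6%, 12.01% and 9.83% of cells. Car9, the surface carbonic anhydrase often used as a mark of severe hypoxia, reached 1 TPM in 10 columns (2.18%, 1.05 to 3.98), which hold 8 distinct cells.

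**Figure D1:**
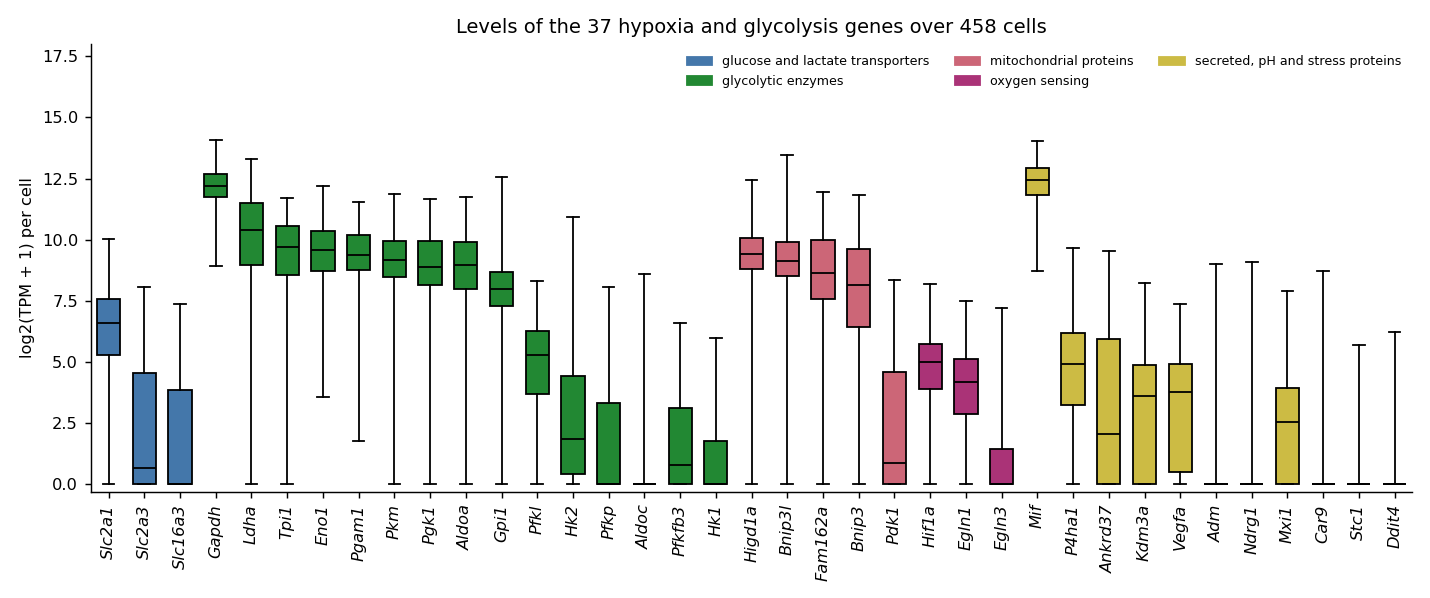
Level of each member over all kept cells as log2(TPM + 1), with boxes from the 25th to the 75th percentile, a line at the median and whiskers to the lowest and highest cell; colours give the members' roles. Mif and Gapdh stand highest with short boxes, Ldha, Fam162a and Bnip3 have tall boxes at high levels, and 10 members have a median of 0.

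How far each member spread between cells was set against genes of like level, as the SD of log2(TPM + 1) minus the running median SD of the genes nearest in mean. By this measure 16 of 37 members lay over the trend by 0.3 or more, beside 10.5% of 13756 genes detected in at least 10 cells. The 3 members under it by as much were Egln1 (-0.59), Hif1a (-0.57) and Mxi1 (-0.41). Bnip3 stood furthest over the trend at 1.24, then Ldha at 1.23, Fam162a at 1.04, Ankrd37 at 0.64, Tpi1 at 0.61 and Adm at 0.56. Among the enzymes 8 of 15 passed the 0.3 bound and Gapdh (0.06) did not, whereas of the 3 sensing genes only Egln3 (0.13) lay over the trend at all.

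In plain levels, Ldha ran from 226.5 TPM at the 10th percentile of cells to 4348 TPM at the 90th, a ratio of 19.2. Fam162a ran from 88.8 to 1811 TPM, a ratio of 20.4, and Bnip3 from 23.96 to 1337 TPM, a ratio of 55.8. Gapdh, often used as a reference gene, ran from 2230 to 8557 TPM, a ratio of 3.84, and its coefficient of variation was 0.493. Ankrd37 was at 0 TPM at the 25th percentile and 60.3 TPM at the 75th, and Adm was at 0 TPM at the 75th and 43.5 TPM at the 90th. Medians were higher in set 1 for 26 members, higher in set 2 for 2 and equal for 9. The same count over all genes was not made, so whether the members differ from other genes here is not known. Set 1 also held more progenitor-marked and fewer neuron-marked columns than set 2. The part of marker state in these medians was not tested. The median of Ldha was 1494 TPM in set 1 and 1278 TPM in set 2, that of Bnip3 325.6 and 218.7 TPM, and that of Tpi1 981 and 675 TPM. Ankrd37 had medians of 8.97 and 0 TPM, Pdk1 3.07 and 0.35 TPM, and Slc16a3 1.8 and 0 TPM.

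The near-copy columns show how closely the members' levels matched between 2 columns taken as the same cell. These pairs were picked for a correlation of 0.93 or more over genes outside the module, so poorly matched repeats are left out. A high rho was thus favoured by the choice, most of all for the genes outside the module. Over the 55 pairs, the median Spearman rho between the columns was 0.943 for the members and 0.925 for the 11131 genes detected in at least 10% of cells, 35 of them members. Ldha had a rho of 0.998, Bnip3 0.997 and Tpi1 0.996, and 29 members reached 0.9. For Ldha the SD within pairs was 0.08 on the log2 scale, beside 1.68 between the paired cells. The lowest values were those of Stc1 at 0.71, Ndrg1 at 0.78 and Ddit4 at 0.78, which are detected in few cells. Whether both columns of a pair come from the same cDNA is not stated.

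The members' levels moved together from cell to cell. Of 666 pairs of members, 40.99% had a Spearman rho of 0.3 or more over all kept cells, beside 0.808% of all pairs of genes detected in at least 10% of cells, and the median rho was 0.25. Abundant genes correlate more readily, so the 14 members with a mean of at least 300 TPM were set beside all 566 such genes: 91 of 91 member pairs reached 0.3, with a median of 0.73, beside 11.4% of pairs. Over the 37 members, mean level and median rho with the other members had a Spearman rho of 0.74, though Hif1a was low in rho at a moderate level. All cells here share 1 culture and library type, and rho is given as a description, without a p. Over distinct cells, 41.1% of pairs reached 0.3, beside 0.825%.

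The correlation was also present within single states. In progenitor-marked cells 53.5% of the 666 pairs reached 0.3, beside 0.143% of all pairs, and the 14 abundant members had a median rho of 0.80, with 91 of 91 pairs past 0.3 beside 3.06%. In neuron-marked cells 43.8% reached it, beside 0.999%. In endoderm-marked cells, where Car9 was listed at 0 and 36 members remained, 45.2% of 630 pairs did, beside 2.2%, and 79 of the 91 abundant pairs reached 0.3 beside 9.63%. Members of the abundant group were thus correlated in each of the 3 states, least so in endoderm-marked cells, where their median rho was 0.63.

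The closest pairs joined glycolytic enzymes. Aldoa and Tpi1, whose products act on consecutive steps, had a rho of 0.887 over all cells and 0.933 in progenitor-marked cells. Ldha had 0.878 with Tpi1 (0.938 in progenitor-marked cells), 0.874 with Eno1 (0.921), 0.867 with Pgam1 (0.923), 0.864 with Aldoa (0.931) and 0.862 with Pgk1 (0.89). These 6 pairs stayed at 0.836 or more in either column set. By role, the median rho was 0.591 among the 5 mitochondrial proteins, 0.541 between them and the enzymes, and 0.388 among the 15 enzymes. In progenitor-marked cells these medians were 0.705, 0.653 and 0.539. Pairs within the 11 secreted and stress genes had a median of 0.134, with 4 of 55 at 0.3 or more.

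**Figure D2:**
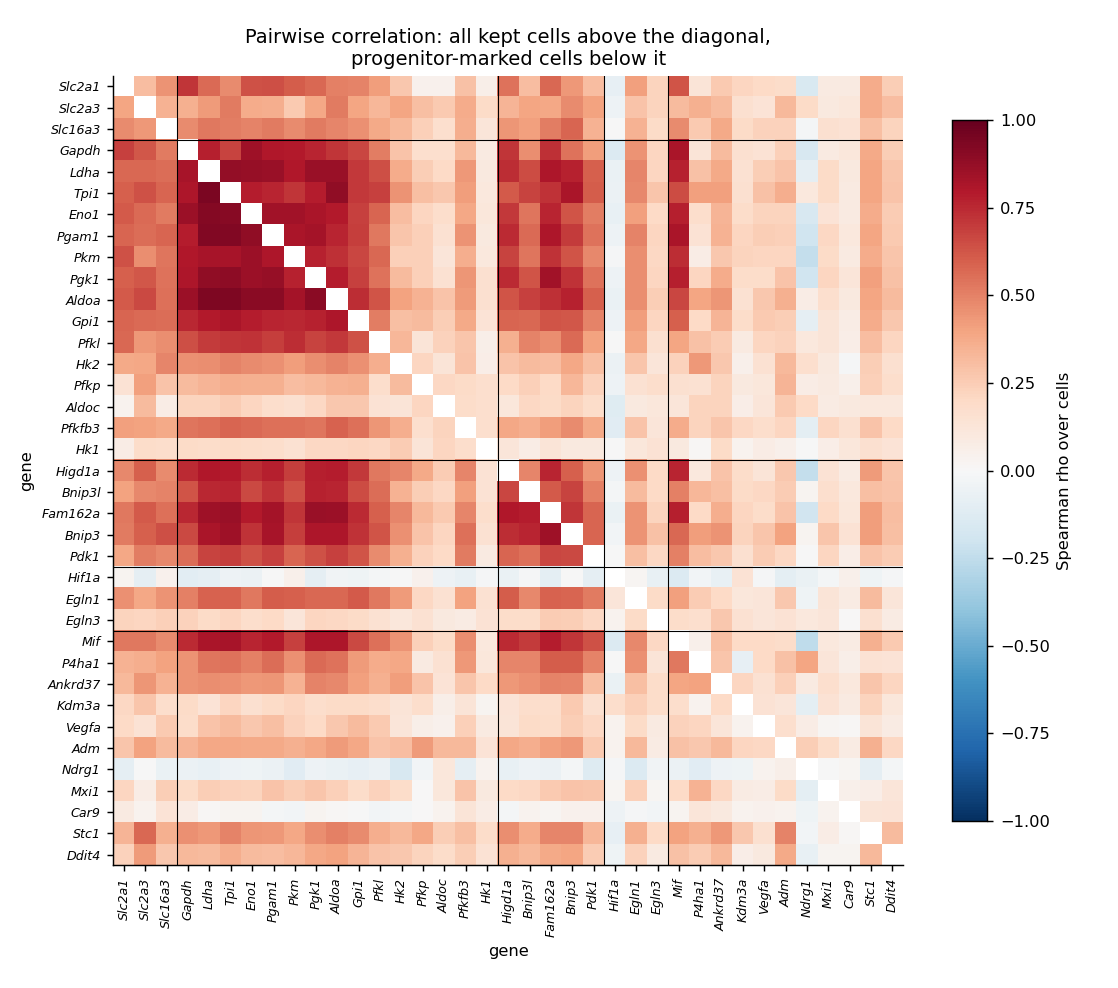
Spearman rho between each 2 members, over all kept cells above the diagonal and over progenitor-marked cells below it, with members on both axes ordered by role and lines between roles. The abundant enzymes, 4 of the mitochondrial proteins and Mif form red blocks, whereas the lines of Hif1a and Ndrg1 are pale or blue.

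The gene for the hypoxia-inducible factor did not share this pattern. Hif1a had a median rho of -0.05 with the other members over all cells and -0.03 in progenitor-marked cells, and its rho with Ldha was -0.07. Its highest value was 0.14, with Kdm3a. Egln1, by contrast, had a median of 0.309, and 0.452 in progenitor-marked cells. Ndrg1 had a median of -0.01, and the lowest pair of all joined it to Mif at -0.25. Within endoderm-marked cells the median of Ndrg1 was 0.257. Car9 had a median of 0.09 from its 10 columns.

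**Figure D3:**
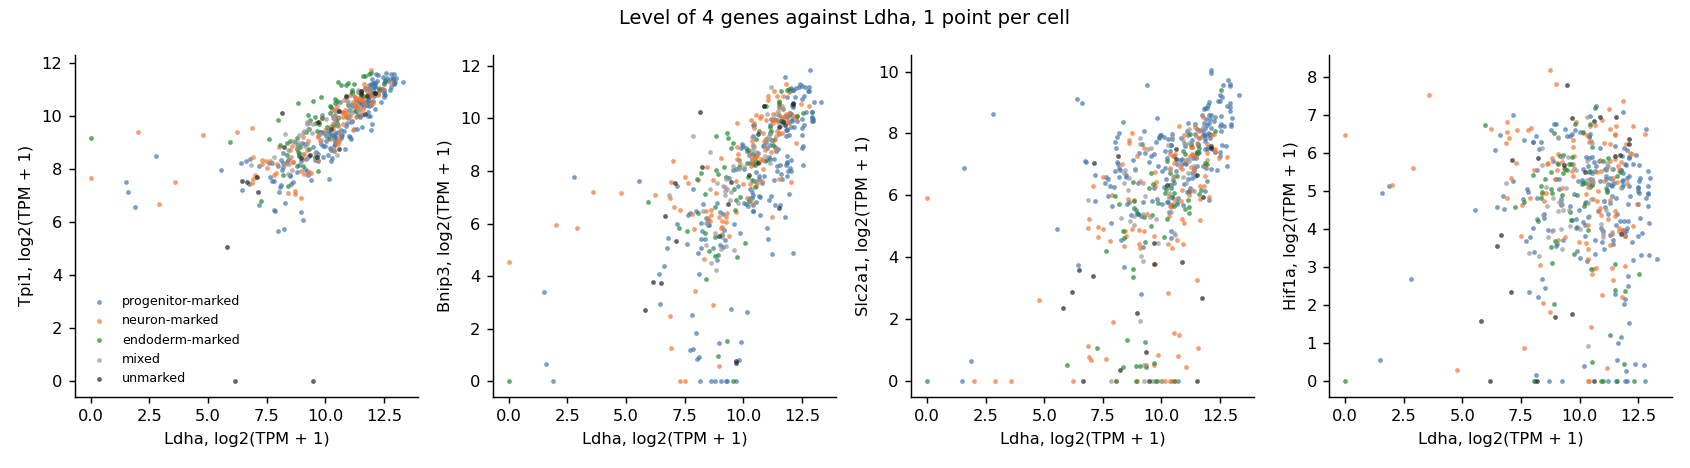
Level of Tpi1, Bnip3, Slc2a1 and Hif1a (vertical axes) against Ldha (horizontal axes) as log2(TPM + 1), with 1 point for each kept cell, coloured by marker state. Tpi1 and Bnip3 climb with Ldha in cells of all states, Slc2a1 does so with a wide scatter, and Hif1a shows no slope.

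Enzymes and response genes followed each other within cells. The response mean, which is the mean log2(TPM + 1) of the 20 members that are neither enzymes nor Hif1a nor Mif, had a rho of 0.82 with the mean of the 15 enzymes over all cells. It was 0.85 in progenitor-marked, 0.83 in neuron-marked and 0.88 in endoderm-marked cells, and 0.81 over distinct cells. Its rho with the number of genes above 0, the only stand-in for depth, was 0.27. Over the cells between the 25th and 75th percentile of gene number the enzyme value was 0.80. The response mean had a rho of 0.07 with the mean of S phase genes and 0.05 with that of G2/M genes. For the enzyme mean these values were 0.13 and 0.08. Over all cells both means thus moved little with the cell cycle lists. Within neuron-marked cells the values of the response mean were 0.155 and 0.15. With the mitochondrially encoded share the response mean had a rho of -0.32 over all cells, and the enzyme mean -0.42. Because TPM are shares, a larger mitochondrial share lowers all other genes, and after rescaling each cell without those genes the values were -0.30 and -0.39.

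Among genes outside the module, 57 of 11096 (0.514%) had a rho of 0.3 or more with the response mean. The 10 highest began with Eno1b at 0.64, the near copy of Eno1, then Grhpr, a glyoxylate reductase gene, at 0.63 and Prelid2 at 0.57. Pgm2, of the phosphoglucomutase family, followed at 0.55, and Igfbp2, which encodes a secreted binding protein of insulin-like growth factors, at 0.52. Igfbp2 reached 0.80 within progenitor-marked cells, the highest of the 10 there, and 0.26 within endoderm-marked cells. The list closed with Mgarp, a mitochondrial protein gene, at 0.52, the mitochondrial adenylate kinase gene Ak4 at 0.45, Prelid1 at 0.43, Bsg, whose product escorts lactate carriers to the membrane, at 0.43, and Ero1l, an oxidase gene of the endoplasmic reticulum, at 0.43. Of 40 further genes of the oxygen and glucose pathways detected in at least 10% of cells, 8 reached 0.3, Bhlhe40, Plod2, Jmjd6, Ppp1r3c and Gbe1 beside the 3 named above. The lowest values of all genes were those of mt-Cytb at -0.42, mt-Nd1 at -0.38 and mt-Atp6 at -0.37.

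The marker states were then compared by a rule of size, which calls a gene higher or lower when its mean TPM differs at least 2-fold and its mean log2(TPM + 1) by at least 1. In endoderm-marked against progenitor-marked cells, 4 members were higher, beside 10.3% of the 13756 genes compared, and 8 were lower, beside 13.4%. The median log2 difference was -0.31 over the members and -0.14 over all genes. Read against the background, the share of members called higher was close to it and the share called lower, 8 of 37, was above it, with no test. Over distinct cells the counts were 2 higher and 7 lower, beside 10.4% and 13.3% of the genes compared there. In set 1 they were 2 and 10, beside 12.04% and 14.6%. In set 2 they were 5 and 5, beside 11.1% and 15.96%, so the share lower was not above the background there. Endoderm-marked cells had fewer genes above 0, with a median of 6059 against 6706.5, and a G2/M mean of 1.85 against 6.37 on the log2 scale. The part of either in these differences was not tested. Within the 25th to 75th percentile of gene number, 5 members were higher, beside 11.97% of the genes compared there, and 4 lower, beside 14.4%, so the share lower was then not above the background.

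Ndrg1, a gene induced by stress and differentiation (chromosome 15, 66929318 to 66969641 in GRCm38.p6), differed most. Its TPM ran from 0 to 537 with a median of 29.8 in endoderm-marked cells and from 0 to 46.9 with a median of 0 in progenitor-marked cells. It was detected in 68.8% (55.9 to 79.8) and in 4.55% (2.10 to 8.45) of them. The means were 68.7 and 0.814 TPM, 84.4-fold apart, with a ratio of 54.9 in set 1 and 134.7 in set 2. Ndrg1 was thus detected in most endoderm-marked cells and seldom reached 1 TPM in progenitor-marked ones.

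P4ha1 (chromosome 10, 59323197 to 59373304) was detected in both states but at different levels. It ran from 0 to 755 TPM with a median of 140 in endoderm-marked cells, and from 0 to 222.7 TPM with a median of 19.3 in progenitor-marked cells. The means of 174.5 and 30.01 TPM were 5.82-fold apart, with a log2 difference of 3.05, and the ratio was 5.52 over distinct cells. The 75th percentile of progenitor-marked cells, 40.9 TPM, lay below the 25th percentile of endoderm-marked cells, 76.4 TPM, while the full ranges overlapped. Both Ndrg1 and P4ha1 kept their call under all 14 alternatives in the cells, scaling, filter or marker thresholds that kept the size rule. In mixed cells P4ha1 had a median of 87.2 TPM and Ndrg1 one of 9.32 TPM, each between the other 2 states. Mixed cells had a median of 8026 genes above 0, against 6059 in endoderm-marked and 6706.5 in progenitor-marked cells. Doublets were not called, so whether mixed columns hold more than 1 cell was not tested.

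Adm and Hk2 were higher by less on the log2 scale, at 1.34 and 1.42, and their calls did not hold in all cell sets. Adm was at a median of 0 TPM in both states, with means of 61.3 and 10.1 TPM (6.07-fold) and detection in 31.3% (20.2 to 44.1) and 18.2% (13.1 to 24.3) of cells. Its ratio was 3.72 in set 1, 10.9 in set 2 and 4.11 over distinct cells, and it passed the rule neither in set 1 nor over distinct cells. Hk2 had medians of 14.8 and 2.27 TPM and means of 36.5 and 16.4 TPM (2.22-fold). Its ratio was 1.85 in set 1 and 2.84 in set 2, and it passed neither in set 1 nor over distinct cells.

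On the lower side, Slc2a1 (chromosome 4, 119108745 to 119137330) had a median of 50.6 TPM (0 to 672) in endoderm-marked and 163.1 TPM (0 to 1055) in progenitor-marked cells. The mean was lower by 2.37 on the log2 scale, with a mean TPM ratio of 0.353. Fam162a had medians of 175.4 and 596 TPM and a ratio of 0.379. Mif, though listed in 64 of 64 endoderm-marked cells, had medians of 2529 and 6846 TPM and a ratio of 0.457. These 3 genes kept their call under the same 14 alternatives, and their ranges overlapped between the states.

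Other enzymes and Higd1a were lower in endoderm-marked cells. Pkm, which makes pyruvate, had means of 426.4 and 959 TPM (ratio 0.445), Pgam1 485 and 1065 TPM (0.455) and Pgk1 404.7 and 854 TPM (0.474). Higd1a had means of 540 and 1157 TPM (0.467), with a ratio of 0.388 in set 1 and 0.591 in set 2. The lactate exporter gene Slc16a3 had means of 5.82 and 15.7 TPM (0.371) and kept its call under 9 of the 14 alternatives, neither over distinct cells nor in set 2. Pgk1 and Higd1a did not pass in set 2 (Pgk1 ratio 0.519), and neither they nor Pkm and Pgam1 passed within the 25th to 75th percentile of gene number. Enzymes of the same chain did not all go this way: Tpi1 had means of 1184 and 1086 TPM (ratio 1.09) and Aldoa 660 and 746 TPM (0.885). Ldha fell short of the rule with 1350 and 2527 TPM (0.534), as did Eno1 (0.554) and Gapdh (0.654). Hif1a was nearly level at 34.6 and 34.2 TPM, and Bnip3 had 475 and 554 TPM.

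**Figure D4:**
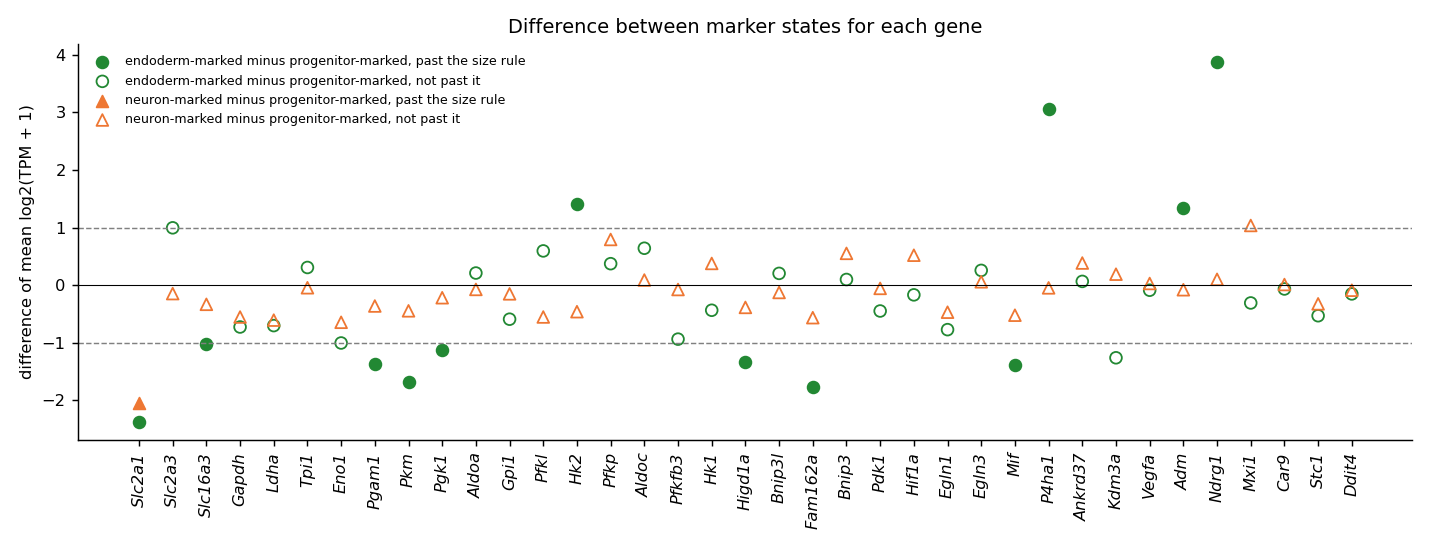
Difference of mean log2(TPM + 1) for each member, endoderm-marked minus progenitor-marked cells (circles) and neuron-marked minus progenitor-marked cells (triangles), with filled marks for members that pass the size rule and dashed lines at 1 and -1. Ndrg1 and P4ha1 stand highest and Slc2a1 lowest, and Slc2a1 is the single filled triangle.

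In neuron-marked against progenitor-marked cells the members were nearly level. By the rule of size 0 members were higher, beside 3.61% of 13756 genes, and 1 was lower, beside 1.31%. That gene was Slc2a1, with a median of 58.9 TPM (0 to 370) in neuron-marked and 163.1 TPM in progenitor-marked cells. The means of 86.4 and 212.01 TPM had a ratio of 0.407, with 0.451 in set 1 and 0.378 in set 2, and the gene was detected in 84.2% (76.4 to 90.2) and 98.5% (95.6 to 99.7) of cells. It kept this call under the same 14 alternatives. Mxi1 came nearest to a higher call, with means of 14.2 and 7.37 TPM (1.92-fold, log2 difference 1.04), and it passed over distinct cells (2.12-fold) and in set 1 (2.33-fold). The enzymes were slightly lower in most cases: 12 of 15 had a log2 difference below 0, with a median of -0.22, beside 44.1% of all genes. Ldha had means of 1659 and 2527 TPM and Gapdh 4528 and 6336 TPM. Slc2a3, the neuronal glucose carrier gene, had 15.2 and 15.7 TPM. Hk2 had a mean of 28.6 TPM in neuron-marked cells that included a single cell at 1918 TPM, whereas its median there was 0.99 TPM.

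**Figure D5:**
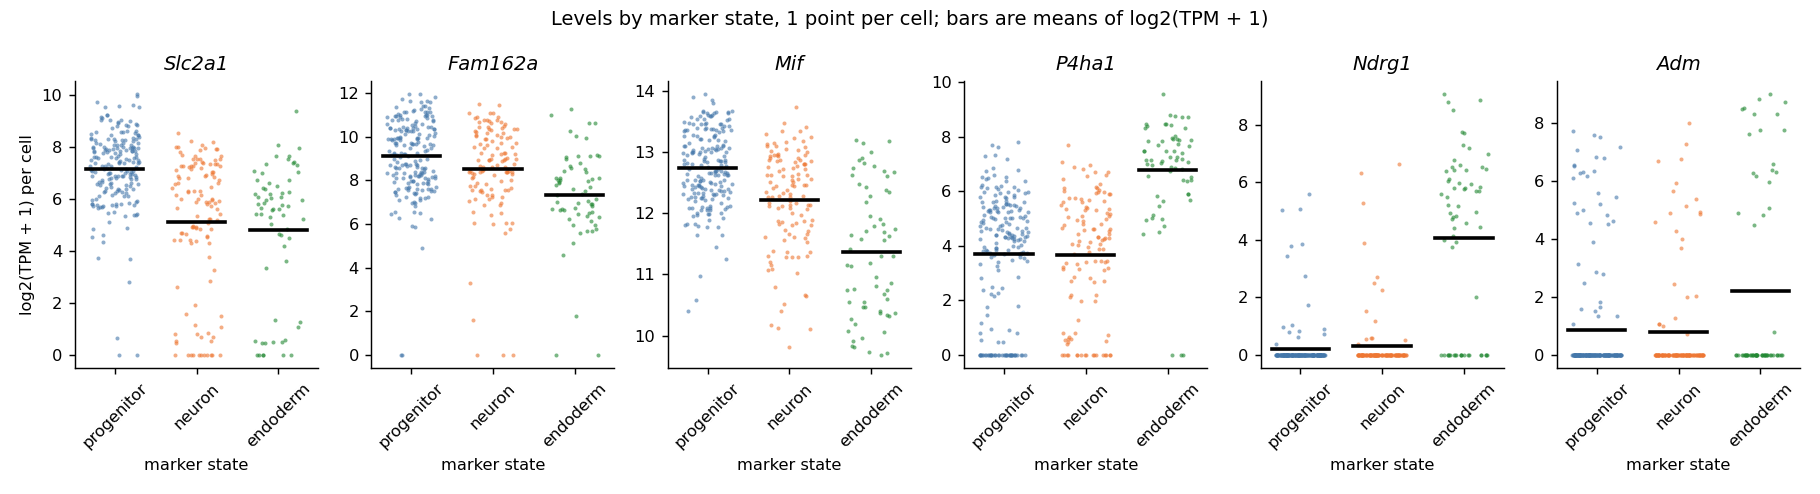
Level of 6 members as log2(TPM + 1) in progenitor-marked, neuron-marked and endoderm-marked cells, with 1 point for each cell and a bar at the mean. P4ha1, Ndrg1 and Adm have the highest bar in endoderm-marked cells, and Slc2a1, Fam162a and Mif have the highest bar in progenitor-marked cells, with overlap between states in all 6.

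Other genes of the same pathways came from a list of 54, of which 47 were compared. In endoderm-marked against progenitor-marked cells, 10 of the 47 were higher, beside the 10.3% of all genes, and 6 lower, a share close to the 13.4% of all genes. Epas1, which encodes the factor subunit HIF-2 alpha, had a median of 42.02 TPM and a detected share of 98.4% in endoderm-marked cells, and a median of 0 TPM and 3.03% in progenitor-marked cells. Its partner genes did not go with it: Arnt had means of 4.92 and 5.17 TPM, and Arnt2 was lower at 0.914 and 6.04 TPM. Of the 5 enzymes of collagen maturation on the list, 4 were higher and Lox was listed at 0 in endoderm-marked cells. The grouping was made after the values were seen. The 4 were P4ha2 (218.5 and 5.13 TPM), Plod2 (118.2 and 8.33 TPM), Plod1 (12.7 and 3.56 TPM) and Loxl2 (51.9 and 2.53 TPM). The lactate carrier gene Slc16a1 was higher at 101.4 and 16.9 TPM, opposite to Slc16a3. Also higher were the transcription repressor gene Bhlhe40 (62.7 and 6.95 TPM), Pgm1 (38.5 and 6.30 TPM), the kinase gene Pdk2 (42.4 and 8.91 TPM) and Nrn1 (6.84 and 0.289 TPM).

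The lower pathway genes included relatives of members. Bpgm, which makes 2,3-bisphosphoglycerate, had means of 10.99 and 57.6 TPM, and the kinase gene Pdk3, a relative of Pdk1, 34.3 and 89.96 TPM. The enolase gene Eno3 had 4.197 and 12.8 TPM, though not past the rule over distinct cells, and Narf had 4.80 and 13.6 TPM. The hexokinase gene Hk3 reached at most 0.67 TPM in any endoderm-marked cell and had a mean of 8.37 TPM in progenitor-marked cells. Ldhb, the other lactate dehydrogenase subunit, was not called and had medians of 436.03 TPM in progenitor-marked, 570 TPM in neuron-marked and 819 TPM in endoderm-marked cells, the reverse of the order of Ldha, at 1863, 1377 and 877 TPM. In neuron-marked against progenitor-marked cells, 1 pathway gene was called: Eno2, the neuronal enolase, with means of 12.1 and 0.601 TPM and detection in 29.2% and 3.54% of cells.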

How the data were processed

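The authors deposited 1 table of 21973 genes by 464 single-cell columns, whose TPM values were made from reads with tools that include STAR and RSEM, on build mm10, per the submitters' processing notes, which give no versions or roles. The unit is not stated. It was taken as TPM because RSEM gives that unit and a cell's listed values sum to 54.2% to 95.1% of 1000000. The annotation is not given in the sources used here, and the header line, which runs into the first gene's values, was split there. Column names match no sample title, but all samples share 1 group.

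The filter (2000 or more genes above 0, no more than 20% of TPM on mt- genes) left 458 columns, 224 of set 1 and 234 of set 2, holding 403 distinct cells. Of these columns 198 were progenitor-marked. Doublets were not called, because callers need counts. A gene was detected at 1 TPM or more and compared if detected in at least 10 cells, and log2 values used a pseudocount of 1. Repeat columns were paired at a correlation of 0.93 or more of log2(TPM + 1) over genes that are no members. Marker states, the size rule, the trend of spread (201 genes) and the rho of 0.3 are described with the results. Cells are not replicates, so no test was run. The calculations used Python 3.11.15 with numpy 2.4.6, pandas 2.3.3 and scipy 1.17.1, and were tested on simulated data. Promoter windows and gene positions are those of RefSeq, GRCm38.p6.

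Genes are named with full values if they are members called by the size rule, the 6 members furthest over the trend, the 6 pairs with the highest rho, called pathway genes, or the 10 non-members with the highest rho with the response mean. Other members are given by level. The members and lists were chosen with earlier results of these data known. Alternatives varied the cells kept, the column set, the scaling, the pseudocount, the filter and the marker thresholds.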

Additional observations from a re-analysis of the deposited data

How the results depend on the processing

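No called member reversed its direction under the alternatives tried. Among members not called, the mean TPM ratio lay on other sides of 1 in the 2 column sets for 7 in the endoderm comparison, such as Pdk1 (0.609 and 1.39), and for 12 in the neuron comparison, such as Hk2 (2.58 and 0.891) and Slc2a3 (0.633 and 1.64). Of the alternative values of the main counts and correlations, 89 stayed within 1.5 times or within their spread and 12 did not. In endoderm-marked against progenitor-marked cells, the 4 members higher became 2 over distinct cells and 2 in column set 1 alone. Of all genes compared, 10.4% and 12.04% were higher in these runs. The 8 members lower became 5 in set 2 alone, beside 15.96% of all genes, and 4 within the 25th to 75th percentile of gene number, beside 14.4%. With a 2-fold difference of medians in place of means 14 members were lower, and the share of all genes by medians was not counted. In neuron-marked against progenitor-marked cells, the 0 members higher became 1 over distinct cells, in set 1 alone and after rescaling without mt- genes. There was also 1 with a pseudocount of 0.1 and with 9 of 10 neuron markers required, and there were 2 by medians. In these runs other than that by medians, 3.81% to 6.47% of all genes were higher. Pairs of members past the threshold numbered 410 of 666 at a rho of 0.2, against 40.99% of them at 0.3. The cause of these differences was not tested. The runs by gene number and by medians were chosen after seeing the data. Among all genes called in the neuron comparison, 73.4% were higher, against 61.7% within the middle range of gene number.

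Depth is unknown, so zeros of low genes such as Hk1, Pfkp, Stc1 and Ddit4 cannot be told apart from missed transcripts. A detection bound of 5 TPM moved the detected share of 18 members outside its interval, any value above 0 that of 14, column set 1 alone that of 6 and set 2 alone that of 4. No paired analysis was possible because there is 1 group of cells and no test.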

Other observations

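The highest values of Car9 came from 1 repeat pair. The columns of that pair, in no marker state, held 420.9 and 371.3 TPM of Car9, with 268.8 and 327.6 TPM of Adm, 4395 and 4450 TPM of Ldha and 1492 and 1524 TPM of Bnip3. The other 8 columns with Car9 at 1 TPM or more, which include another repeat pair, held 1.19 to 19.5 TPM. Their Ldha ran from 291.1 to 4908 TPM and Adm was at 0 TPM in 5 of them. No endoderm-marked cell was among the 10 columns.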
